A study of Mus musculus with 4 samples.

Results

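Vessel markers and angiogenic signals were followed in RNA from the postnatal mouse retina. The 10 genes, of 21828 analyzed, were chosen by name: the growth factors Vegfa and Pdgfa, their receptors Kdr, Flt1, Pdgfra and Pdgfrb, and the endothelial genes Pecam1, Cdh5, Cldn5 and Tie1. The retinas came from untreated FVB/N mice, as the labels give the strain (the methods of the study also name ICR mice), that carried pHes1-EGFP, a 2.5-kb promoter of Hes1 driving a destabilized EGFP, and all 4 libraries share this transgene. At postnatal day 1 (P1) and day 4 (P4) the dissociated cells were sorted into EGFP-positive cells (pHes1_EPCs) and EGFP-negative cells (pHes1_ENCs), and each of these 4 samples was sequenced as 1 library. The number of retinas behind a library is not given in the sources used here. The sort follows Hes1 promoter activity and no vessel marker, so vascular cells of the retina can enter either fraction.

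The mouse retina is born almost without vessels. During the first days of life endothelial cells spread over its inner surface from the optic nerve head, along a network of astrocytes that secrete VEGF. Vegfa, the main attractant of endothelial cells, signals through the receptor tyrosine kinase Kdr, while Flt1 binds the same ligand tightly and limits its supply. Retinal ganglion cells make Pdgfa, which draws in astrocytes through Pdgfra, and Pdgfrb lets pericytes follow the growing vessel in response to Pdgfb from endothelial tip cells. Kdr is also known from retinal progenitor cells, outside the vessels.

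Levels are given in FPKM, which counts fragments for each kilobase of a transcript and for each 1e6 fragments mapped, and which allows genes of unequal length to be compared. Differences were taken on the scale of log2(FPKM + 1), as pHes1_EPCs minus pHes1_ENCs of one age, and a difference past 1 or past -1 is called 2-fold. No group has more than 1 library, so fractions of an age have no replicate check and no test was made. Ranges in brackets come from the Cufflinks 95% intervals, which cover counting error only and no variation between animals or sorts. In RNA from a bulk of cells, fewer cells of a type and less RNA per cell cannot be told apart.

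The libraries matched their fraction labels. Hes1 stood at 16.6 and 104.5 FPKM in P1 pHes1_ENCs and pHes1_EPCs and at 3.59 and 93.5 FPKM at P4, and each of 8 Muller glia and progenitor markers passed the 2-fold threshold in pHes1_EPCs at P1 and again at P4. All 5 photoreceptor markers were more than 2-fold lower there, but were still read at P4, where Nrl, the rod transcription factor, stood at 184 FPKM in pHes1_EPCs against 875 in pHes1_ENCs. Between 11458 and 12108 genes in a library stood at 1 FPKM or more. Red blood cell genes, a sign of blood cells in a sample, summed to 214 and 0.910 FPKM in P1 pHes1_ENCs and pHes1_EPCs and to 509 and 8.85 FPKM at P4. Markers of microglia and macrophages summed to 2.70, 14.1, 8.34 and 14.0 FPKM in P1 pHes1_ENCs, P1 pHes1_EPCs, P4 pHes1_ENCs and P4 pHes1_EPCs, the order used for 4 values from here on. The part of blood or of microglia in the levels below was not tested.

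All 10 genes have a single line in the tables, and the line of none overlaps that of another gene. In NCBI37/mm9, Vegfa covers chr17:46153943-46169326 on the minus strand, with 8 exons in its longest coding transcript. Kdr lies at chr5:76329299-76374453 and Flt1 at chr5:148373772-148537564, both on the minus strand with 30 exons. Pecam1 lies at chr11:106515532-106576595 (minus strand, 16 exons), Cdh5 at chr8:106625525-106668402 (plus, 12 exons) and Tie1 at chr4:118143796-118162454 (minus, 23 exons). Cldn5 at chr16:18776940-18778355 is a gene of 1 exon on the plus strand. Pdgfa lies at chr5:139452929-139470907 (minus, 6 exons) and Pdgfra at chr5:75548316-75594229 (plus, 23 exons).

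The 250 bases before the start of 3 genes are shown because these genes are all used as endothelial markers, yet Kdr stood far above the other two in every library. ETS factors such as Erg and Fli1 drive many endothelial genes through sites that often hold the letters GGAAG. Other forms of the site were not searched for. In the RefSeq promoter sequences of GRCm38.p6, a later build than that of the FPKM tables, Kdr lies at chr5:75978456-75978705, Flt1 at chr5:147726012-147726261 and Tie1 at chr4:118489850-118490099, all read from the minus strand. Capitals mark GGAAG on either strand, which reads CTTCC where it lies on the other strand.
Kdr: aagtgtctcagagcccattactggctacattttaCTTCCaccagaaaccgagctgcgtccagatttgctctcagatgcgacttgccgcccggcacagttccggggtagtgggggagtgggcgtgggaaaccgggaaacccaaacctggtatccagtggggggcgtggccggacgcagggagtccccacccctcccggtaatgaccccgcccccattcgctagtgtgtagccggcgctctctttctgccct
Flt1: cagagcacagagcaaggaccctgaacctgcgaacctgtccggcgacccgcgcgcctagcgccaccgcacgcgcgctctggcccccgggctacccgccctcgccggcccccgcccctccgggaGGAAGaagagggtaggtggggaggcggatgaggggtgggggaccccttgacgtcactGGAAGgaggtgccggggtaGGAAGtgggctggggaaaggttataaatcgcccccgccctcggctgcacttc
Tie1: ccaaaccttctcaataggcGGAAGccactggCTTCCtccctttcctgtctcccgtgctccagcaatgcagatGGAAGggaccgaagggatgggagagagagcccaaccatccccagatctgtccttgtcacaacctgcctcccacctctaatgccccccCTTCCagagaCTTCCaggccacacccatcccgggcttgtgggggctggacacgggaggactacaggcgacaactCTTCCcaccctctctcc

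The window held 1 match in Kdr, 3 in Flt1 and 6 in Tie1, with the match nearest to the start 216, 52 and 17 bases before it. Among all 32851 promoter windows of this length in the table, 64.1% held at least 1 such match. TGGGAA, a site of the Notch effector Rbpj that can overlap GGAAG in TGGGAAG, was found once in Kdr, 128 bases before the start, and once in Tie1, but not in Flt1, against 21.6% of all windows. ACGTG, a form of the core of the site bound by hypoxia-inducible factors, was in none of these 3 windows and in 16.6% of all. The form GCGTG was not counted, and it lies in the Kdr window and, on the other strand, in the Flt1 window. Of the 9 promoter windows listed for 7 of the 10 genes, ACGTG appeared in 1, that of an alternative start of Vegfa. The Cldn5 and Pdgfra windows held none of the 3 motifs. These matches are letters in a window, and binding was not measured here.

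Kdr had the widest difference of the 10 genes in log2(FPKM + 1) between the fractions, at P1 and at P4. As a ratio of FPKM without the pseudocount it was exceeded at P1 by Flt1, Pecam1 and Cldn5, and at P4 by Pdgfrb. With a pseudocount of 0.1 it was exceeded at P1 by Flt1 and Cldn5. With FPKM rescaled to the same total, Cldn5 had the wider difference at P1 (-2.22 against 2.06 for Kdr). Flt1, Pecam1 and Pdgfrb stood at far lower levels than Kdr. At P1 the FPKM of Pecam1 and Cldn5 were higher in pHes1_ENCs, but the intervals of Pecam1 overlapped. The level of Kdr was 46.9 FPKM in P1 pHes1_ENCs, 209 FPKM in P1 pHes1_EPCs, 12.0 FPKM in P4 pHes1_ENCs and 189 FPKM in P4 pHes1_EPCs. Both EGFP-positive libraries thus lay above both EGFP-negative libraries. The level in pHes1_EPCs was 4.46 times that in pHes1_ENCs at P1 (range 4.19 to 4.65) and 15.7 times at P4 (14.3 to 16.8), and the differences in log2(FPKM + 1) were 2.13 and 3.87. In P1 pHes1_EPCs, 99.3% of genes had a lower FPKM than Kdr. The wider difference at P4 lay mainly in the EGFP-negative cells, where the level at P4 was lower than at P1 by 1.88 on the log2 scale, while that of pHes1_EPCs was lower by 0.14. In both pHes1_EPC libraries the FPKM of Kdr lies above the upper end of its own Cufflinks interval (199 to 205 for P1, 180 to 186 for P4), as does the FPKM of Cldn5 in P1 pHes1_ENCs (13.0 to 16.2). In each library, 9.06% to 10.4% of gene lines lie outside their own interval.

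**Figure D1:**
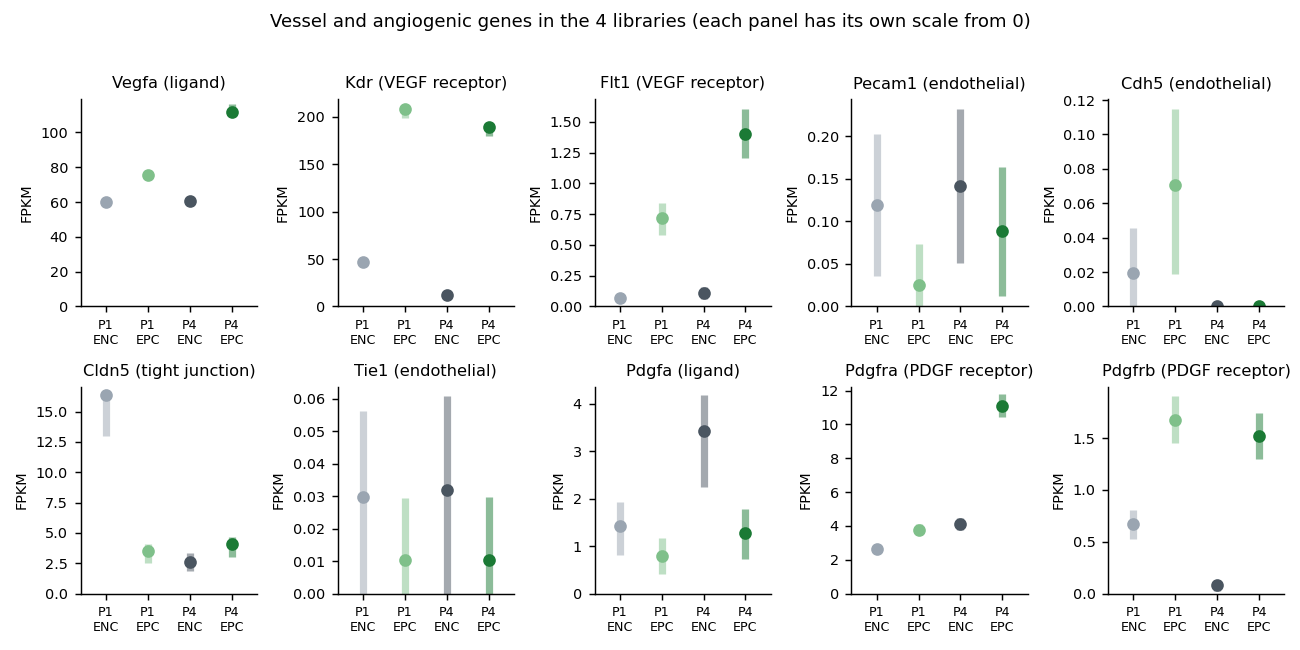
FPKM of the 10 genes (vertical axis, each panel with its own scale from 0) in the 4 libraries (horizontal axis, ENC and EPC for pHes1_ENCs and pHes1_EPCs). Points are the deposited FPKM and thick bars the Cufflinks 95% intervals. Kdr at 209 and 189 FPKM and Vegfa at 75.4 and 112 FPKM in pHes1_EPCs set the scale of their panels, whereas Pecam1, Cdh5 and Tie1 do not pass 0.142 FPKM in any library.

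The other VEGF receptor of blood vessels, Flt1, was far lower. Its level was 0.0658, 0.715, 0.110 and 1.41 FPKM. As for Kdr, both pHes1_EPC libraries lay above both pHes1_ENC libraries. The ratio of pHes1_EPCs to pHes1_ENCs was 10.9 at P1 (5.92 to 29.1) and 12.8 at P4 (7.72 to 25.7). The differences in log2(FPKM + 1) were 0.69 and 1.12, values that understate the ratio because the FPKM are near the pseudocount of 1. Kdr exceeded Flt1 per length by 712, 292, 109 and 134 times. From the width of the intervals, Flt1 had only about 13.4 reads in P1 pHes1_ENCs and 21.8 in P4 pHes1_ENCs, so the ratios there are loose. Flt4, the VEGF receptor of lymphatic vessels, was at most 0.139 FPKM.

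The neuropilins are co-receptors that Kdr shares with the semaphorin pathway. Nrp1 stood at 5.31, 13.0, 7.30 and 20.2 FPKM, with log2 differences of 1.15 and 1.36. Nrp2 showed the opposite direction, with 3.28, 0.436, 1.07 and 0.317 FPKM and log2 differences of -1.57 and -0.65. The ratio of Nrp1 to Nrp2 was 1.62, 29.9, 6.83 and 63.8.

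The ligand Vegfa was among the more abundant transcripts in all 4 libraries, at 59.8, 75.4, 60.4 and 112 FPKM. The intervals of the EGFP-negative libraries of both ages overlapped (P1 interval 57.6 to 62.5, P4 interval 57.7 to 63.1), and the pHes1_EPC library was higher at each age. The level in pHes1_EPCs was 1.26 times that in pHes1_ENCs at P1 (1.17 to 1.37) and 1.85 times at P4 (1.74 to 2.01), with log2 differences of 0.33 and 0.88, neither past the 2-fold threshold. In pHes1_EPCs the level at P4 was 1.48 times that at P1 (1.40 to 1.58). The ratio of ligand to receptor, Vegfa to Kdr, was 1.28, 0.361, 5.03 and 0.592, so the receptor transcript exceeded that of the ligand in both pHes1_EPC libraries and was the lower of the pair in both pHes1_ENC libraries.

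Of the other VEGF ligands, Vegfb, which binds Flt1, stood at 19.7, 35.9, 19.7 and 28.9 FPKM, with log2 differences of 0.83 and 0.53. Pgf, also a ligand of Flt1, was at 2.18, 5.64, 3.30 and 3.89 FPKM, with log2 differences of 1.06 at P1 and 0.18 at P4. Vegfc, the lymphatic growth factor, stayed at 0.281 to 1.89 FPKM and Figf (Vegf-D) at 0.0235 to 0.319 FPKM. The family has 7 other ligands, receptors and co-receptors, of which Nrp1 and Pgf passed the 2-fold threshold in pHes1_EPCs at P1 (2 of 7) and Nrp1 at P4 (1 of 7), and Nrp2 passed it in pHes1_ENCs at P1 (1 of 7). Of all genes, 6.1% (P1) and 9.85% (P4) passed it in pHes1_EPCs and 6.79% (P1) and 5.42% (P4) in pHes1_ENCs. Among the 12941 genes that reached 1 FPKM in at least 1 library, the shares were higher. They were 10.3% and 16.6% in pHes1_EPCs and 11.5% and 9.15% in pHes1_ENCs. This and the following counts of lists are to be read against both sets of shares. The median differences of the 7 genes were 0.83 and 0.18, beside 0 for all genes at both ages.

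**Figure D2:**
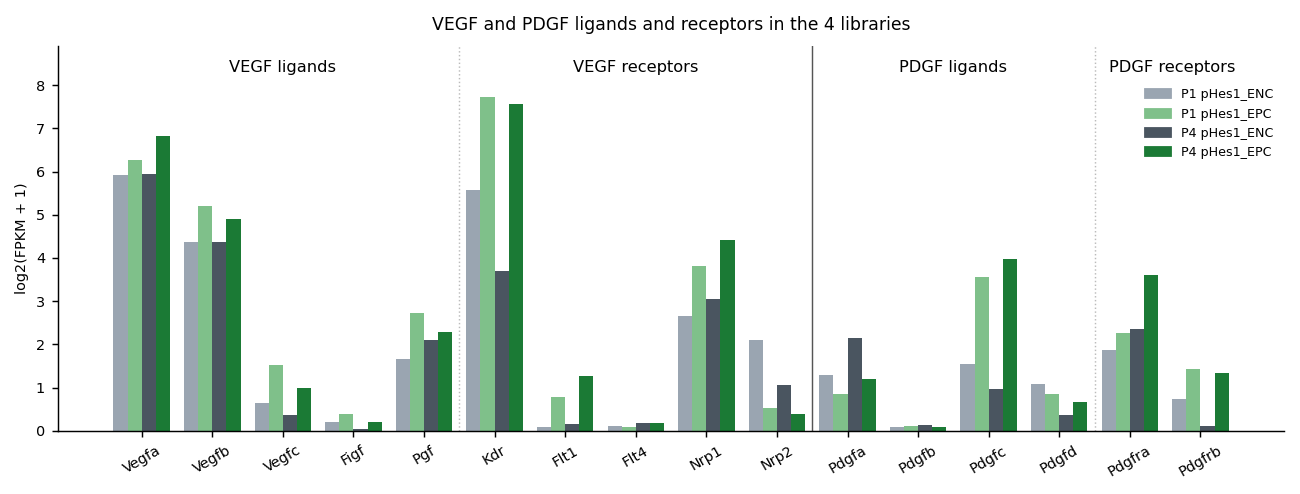
Levels as log2(FPKM + 1) (vertical axis, from 0) of VEGF and PDGF ligands and receptors, with 1 bar for each of the 4 libraries and no replicates. Kdr and Nrp1 among the VEGF receptors and Pdgfc among the PDGF ligands have their 2 green bars (pHes1_EPCs) above the gray bars (pHes1_ENCs), whereas the bars of Nrp2 and Pdgfa stand the other way within each age.

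Pecam1, Cdh5 and Tie1, which are used as markers of endothelial cells, were close to 0 in every library. Pecam1, an adhesion molecule of endothelial junctions, stood at 0.119, 0.0250, 0.142 and 0.0885 FPKM. Cdh5, the cadherin of endothelial junctions, stood at 0.0192 and 0.0705 FPKM at P1 and is listed at 0 in both P4 libraries. Tie1, an orphan receptor of endothelial cells, stood at 0.0297, 0.0104, 0.0321 and 0.0105 FPKM. From the width of the intervals, these levels correspond to about 1.05 to 9.88 reads of Pecam1 in a library, 2.12 and 7.84 reads of Cdh5 at P1 and 1.18 to 4.99 reads of Tie1. The intervals of the fractions overlapped for all 3 genes at P1 and for Pecam1 and Tie1 at P4, so a difference between the fractions was not detectable at this depth.

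The same held for most of 26 further endothelial markers. Of these, 24 stayed under 1 FPKM in all 4 libraries, and Erg was listed at 0 in all of them. The exceptions were Egfl7, a secreted protein of endothelial cells, at 2.19, 9.52, 1.27 and 15.4 FPKM (log2 differences 1.72 and 2.86), and Nos3, the endothelial nitric oxide synthase, at 0.325, 0.0320, 2.33 and 0.559 FPKM (-0.36 and -1.10). All 26 summed to 4.80, 12.1, 6.97 and 19.9 FPKM, and the 24 without Egfl7 and Nos3 to 2.28, 2.57, 3.37 and 3.91 FPKM. As deposited, without rescaling, both sums were higher in pHes1_EPCs than in pHes1_ENCs at each age. The total FPKM of all genes was also higher in pHes1_EPCs, at P4 with 372016 against 303876 in pHes1_ENCs. Without Egfl7 alone the 25 others summed to 2.60, 2.60, 5.71 and 4.47 FPKM. Kdr exceeded the sum of the 26 by 9.77, 17.2, 1.72 and 9.50 times and that of the 24 by 20.6, 81.4, 3.56 and 48.3 times. The part of endothelial cells in the levels of Kdr and Flt1 was not tested. In pHes1_EPCs Egfl7 was the 1 gene of the list past the threshold at either age, and Nos3 was the 1 gene past it in pHes1_ENCs, at P4. The median differences of the list were -0.0008 and -0.0044.

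**Figure D3:**
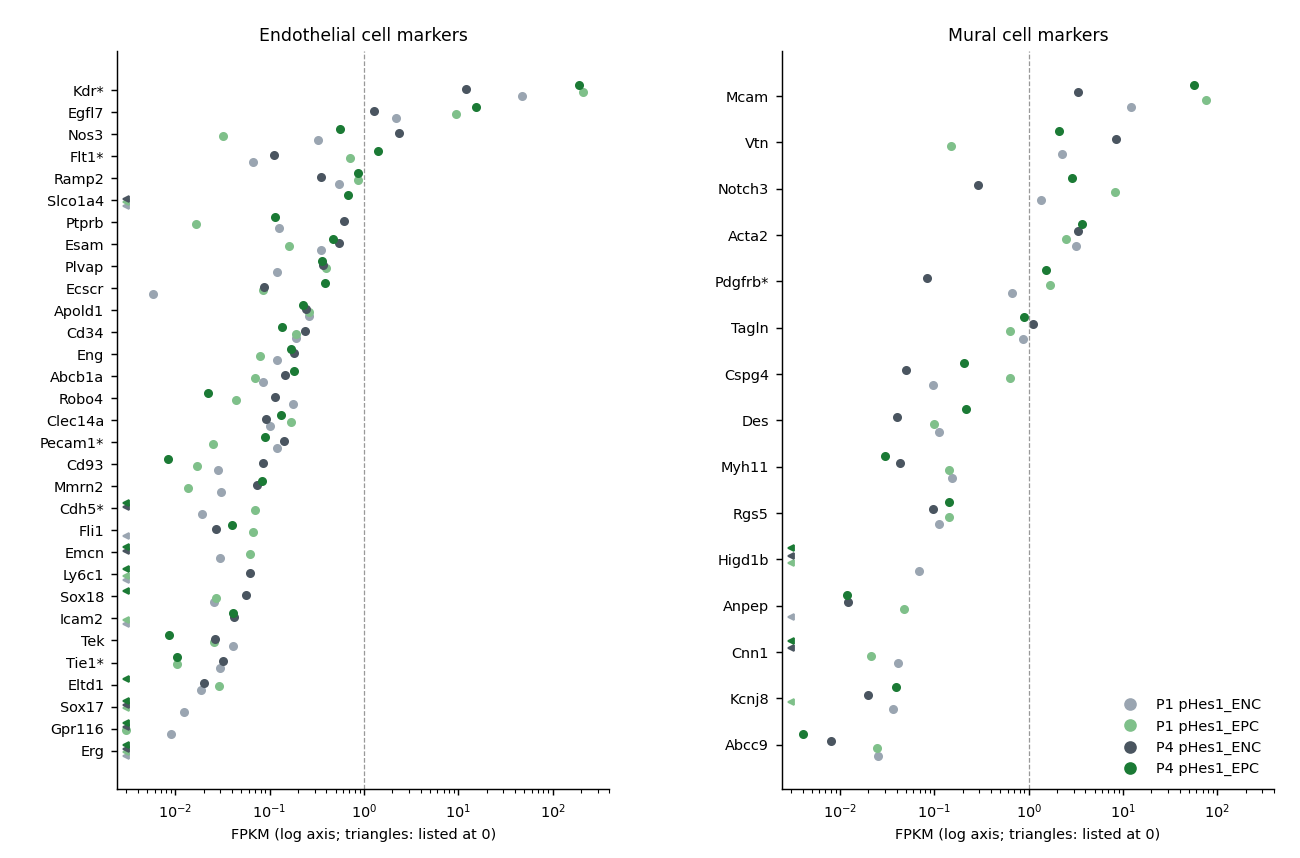
FPKM (horizontal log axis) of endothelial markers (left) and mural cell markers (right), sorted by their highest level, with 1 point for each library and triangles at the left edge for genes listed at 0. An asterisk marks genes among the 10 described here, and the dashed line is 1 FPKM. Cldn5, at 2.59 to 16.3 FPKM, is not drawn. Kdr lies far to the right of Pecam1, Cdh5, Tie1, Tek and Erg, and most of the other markers lie left of the line in every library.

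Cldn5, the claudin that seals the tight junctions of brain and retinal vessels, had a pattern of its own among the 10. Its level was 16.3 FPKM in P1 pHes1_ENCs, 3.49 FPKM in P1 pHes1_EPCs, 2.59 FPKM in P4 pHes1_ENCs and 4.06 FPKM in P4 pHes1_EPCs. The P1 pHes1_ENC library was high and the other 3 were low. At P1 the level in pHes1_ENCs was 4.69 times that in pHes1_EPCs (3.18 to 6.40), with a log2 difference of -1.95. At P4 the direction was the opposite, but the intervals of the fractions overlapped (log2 difference 0.50, ratio of pHes1_EPCs to pHes1_ENCs 1.57, range 0.898 to 2.57). Between P1 and P4 the level in pHes1_ENCs differed by 6.31 times (3.91 to 8.84), with the higher value at P1. Over the 4 libraries the 26 further endothelial markers summed to 4.80, 12.1, 6.97 and 19.9 FPKM. Red blood cell genes summed to 214, 0.910, 509 and 8.85 FPKM. The part of vessel or blood cells in the level of Cldn5 was not tested.

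Tip cells lead the vessel sprout and stalk cells follow it, and several of the genes that mark them, such as Dll4, Jag1, Hey1, Nrarp and Lfng, belong to the Notch pathway. Of 12 such genes, 3 passed the 2-fold threshold toward pHes1_EPCs at P1 as well as P4, beside 6.1% and 9.85% of all genes, namely Cxcr4 (28.2, 144, 4.97 and 101 FPKM), Nrarp (24.9, 122, 8.08 and 121 FPKM) and Lfng (17.0, 86.8, 3.15 and 80.8 FPKM). All 3 also have roles outside vessels, Nrarp and Lfng as modulators of Notch signals and Cxcr4 as a chemokine receptor. Dll4, the Notch ligand of tip cells, stood at 35.3, 6.08, 7.75 and 8.28 FPKM, with log2 differences of -2.36 and 0.09. The high value of Dll4 was thus in the same library as that of Cldn5. Hey1 (9.81, 18.0, 9.16 and 18.8 FPKM) stayed below it, with differences of 0.81 and 0.96, and Jag1 was past it in pHes1_ENCs at P4 (-1.23). Past the threshold in pHes1_ENCs stood 1 of the 12 at P1 (Dll4) and 1 at P4 (Jag1), and 3 at P1 with FPKM scaled to the same total. Esm1, the secreted marker of tip cells, and Aplnr, the apelin receptor of endothelial cells, did not pass 0.0038 and 0.0117 FPKM. The median differences of the 12 genes were 0.01 and 0.04.

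In the PDGF branch the ligand Pdgfa and its receptor had different directions. Pdgfa stood at 1.43, 0.798, 3.43 and 1.28 FPKM, higher in pHes1_ENCs at each age. At P1 the intervals of the fractions overlapped. At P4 the level in pHes1_ENCs was 2.68 times that in pHes1_EPCs (1.26 to 5.80), with a log2 difference of -0.96, just short of the threshold. Pdgfc, a second ligand of Pdgfra, had the opposite pattern at 1.90, 10.8, 0.949 and 14.7 FPKM, with log2 differences of 2.02 and 3.01. The ratio of Pdgfc to Pdgfa was 1.33, 13.5, 0.277 and 11.5. Pdgfb, the ligand that recruits pericytes, was at most 0.10 FPKM, and Pdgfd, which also binds Pdgfrb, stood at 1.12, 0.814, 0.296 and 0.580 FPKM. Pdgfc was the 1 gene of these 3 further ligands past the threshold, at both ages, and the median differences of the 3 were 0.02 and 0.29.

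Pdgfra, the receptor on astrocytes and oligodendrocyte precursors, stood at 2.66, 3.78, 4.11 and 11.1 FPKM. The P4 pHes1_EPC library was the high one, and the intervals of P1 pHes1_EPCs (3.45 to 4.11) and P4 pHes1_ENCs (3.75 to 4.46) overlapped. The ratio of pHes1_EPCs to pHes1_ENCs was 1.42 at P1 (1.18 to 1.72) and 2.70 at P4 (2.34 to 3.14), with log2 differences of 0.39 and 1.25. Within pHes1_EPCs the P4 level was 2.94 times the P1 level (2.54 to 3.41). Among markers of retinal astrocytes, Gfap (0.318, 0.335, 1.21 and 0.860 FPKM) and Pax2 (0.489, 0.324, 1.03 and 0.954 FPKM) were low in all libraries and not higher in P4 pHes1_EPCs than in P4 pHes1_ENCs. Fbxo2 stood at 1.34, 2.77, 2.44 and 11.2 FPKM, and Aldh1l1 at 0.177, 0.251, 0.109 and 1.16 FPKM. Of the 6 astrocyte markers 0 passed the threshold at P1 and 1 at P4 (Fbxo2), the summed levels were 2.63, 4.31, 5.85 and 15.8 FPKM, and the median differences were 0.07 and 0.26. The 4 markers of oligodendrocyte precursors summed to 29.5, 5.71, 5.78 and 22.5 FPKM, nearly all of it Olig2 (27.6, 5.17, 5.50 and 20.9 FPKM), a factor that retinal progenitors also express, while Sox10 did not pass 0.376 FPKM. The part of either cell type in the level of Pdgfra was not tested.

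Pdgfrb, the receptor of pericytes, is a gene of 24 exons on the plus strand of chr18:61204804-61244721. It stood at 0.670, 1.68, 0.0829 and 1.52 FPKM, with both pHes1_EPC libraries above both pHes1_ENC libraries. The ratio of pHes1_EPCs to pHes1_ENCs was 2.5 at P1 (1.79 to 3.59) and 18.4 at P4 (9.58 to 57.9). The differences in log2(FPKM + 1) were 0.68 and 1.22, which understate these ratios in the same way as for Flt1. In pHes1_ENCs the P1 level was 8.08 times the P4 level (3.91 to 26.9), while in pHes1_EPCs the intervals of the 2 ages overlapped. The ratio of Pdgfra to Pdgfrb was 3.97, 2.26, 49.5 and 7.29. In P4 pHes1_ENCs the level of Pdgfrb corresponds to about 9.87 inferred reads.

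Of 14 further markers of mural cells, the pericytes and smooth muscle cells around vessels, 9 stayed under 1 FPKM in all libraries. Among them were Rgs5 (0.0978 to 0.144 FPKM), Abcc9 (0.0040 to 0.0250 FPKM), Kcnj8, Anpep and Higd1b. Mcam (12.1, 76.4, 3.33 and 56.5 FPKM) and Notch3 (1.36, 8.33, 0.289 and 2.88 FPKM) were the 2 genes past the threshold in pHes1_EPCs, at either age. Vtn was past it in pHes1_ENCs at either age (log2 differences -1.50 and -1.61). Acta2 (smooth muscle actin), at 2.48 to 3.65 FPKM, and Tagln, at 0.634 to 1.11 FPKM, did not pass the threshold. The median differences were -0.02 and 0.01, and -0.02 and 0 without Mcam and Notch3.

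Counted over all 10 genes, 1 passed the 2-fold threshold in pHes1_EPCs at P1 (Kdr), beside 6.1% of all genes, and 1 passed it in pHes1_ENCs (Cldn5), beside 6.79%. At P4, 4 were higher (Kdr, Flt1, Pdgfra and Pdgfrb), beside 9.85% of all genes, and 0 were lower, beside 5.42%. Pecam1, Cdh5 and Tie1 did not reach 1 FPKM and so could not pass the threshold. Among the 12941 genes that reached 1 FPKM in at least 1 library, as 7 of the 10 did, the shares were 10.3% higher and 11.5% lower at P1, and 16.6% higher and 9.15% lower at P4. The counts at P1 were thus near the background. The median differences of the 10 genes were 0.20 at P1 and 0.69 at P4, and the medians of genes with at least 1 FPKM in all libraries were 0.04 and 0.15. From P1 to P4, in pHes1_ENCs, 0 of the 10 were more than 2-fold higher (2.77% of all genes) and 2 were lower (Kdr and Cldn5, beside 5.94%). In pHes1_EPCs, 1 was higher at P4 (Pdgfra, beside 4.17%) and 0 were lower (2.57%). The comparisons between the fractions and those between the ages share libraries and are not independent of each other.

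**Figure D4:**
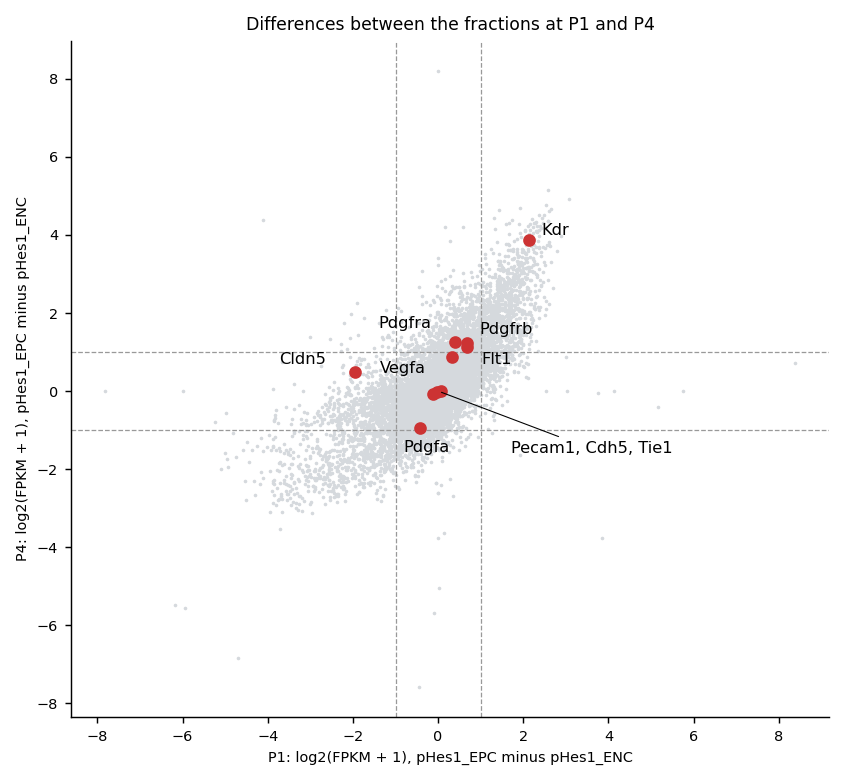
Difference in log2(FPKM + 1) between pHes1_EPCs and pHes1_ENCs at P1 (horizontal axis) and at P4 (vertical axis), for all 21828 genes (gray) and the 10 genes described here (red); dashed lines mark differences of 1 and -1. Kdr lies in the upper right corner region at 2.13 and 3.87, Flt1, Pdgfra and Pdgfrb pass the threshold at P4 only, and Cldn5 lies at the left, at -1.95 and 0.50.

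The order of the levels changed with the fraction. In both pHes1_ENC libraries Vegfa was the highest of the 10 and Kdr followed, and in both pHes1_EPC libraries Kdr came before Vegfa, in each case with intervals that did not overlap. In P1 pHes1_ENCs, Cldn5 came next, with its interval apart from that of Pdgfra. In the other 3 libraries Pdgfra took this place, and its interval overlapped that of the following gene in P1 pHes1_EPCs (Cldn5) and in P4 pHes1_ENCs (Pdgfa). In P4 pHes1_EPCs, Pdgfrb, Flt1 and Pdgfa followed each other at 1.52, 1.41 and 1.28 FPKM with overlapping intervals.

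The genes whose pattern was most like that of each gene were sought among 10462 others that reached 5 FPKM in at least 1 library. Likeness was measured as the Euclidean distance between log2(FPKM + 1) values, centred on the mean of each gene over the 4 libraries, and with 4 libraries many genes have near patterns. The nearest to Kdr were Id2 (distance 0.089), Espn (0.106) and Irx5 (0.146). Id2, an inhibitor of bHLH factors, stood at 23.5, 115, 5.99 and 103 FPKM. Of the progenitor genes Hes5, Sox2 and Hes1, looked up after the values were seen, Hes5 was at a distance of 0.297, Sox2 at 0.309 and Hes1 at 0.477, the last with 28 genes nearer to Kdr. Per length, Kdr exceeded Hes1 by 2.83, 2.00, 3.35 and 2.02 times.

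The nearest to Cldn5 were Stac2 (0.142), Syt5 (0.143) and B4galnt1 (0.187), which had their high value in P1 pHes1_ENCs, at 11.0, 8.77 and 10.8 FPKM. Syt5 encodes a synaptotagmin. Dll4, looked up after its values were seen, was at 0.463, with 21 genes nearer. For Vegfa the nearest were Fam98a, Fez2 and Nudt16l1, at distances of 0.046, 0.050 and 0.052, and for Pdgfra they were Ddt, 1810020D17Rik and Myo6, at 0.10, 0.164 and 0.166. The other 6 genes did not reach 5 FPKM and were not compared.

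**Figure D5:**
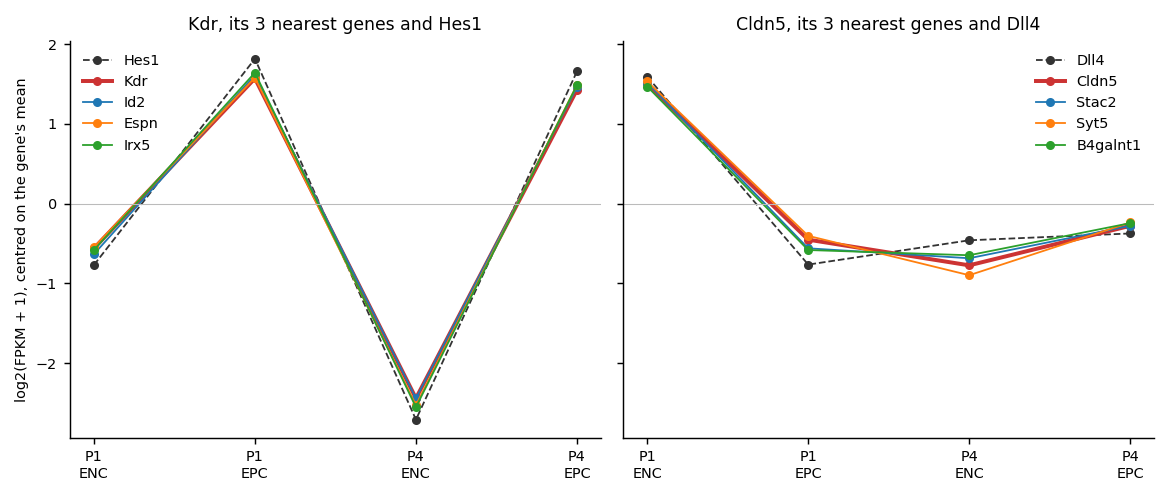
Centred log2(FPKM + 1) (vertical axis) in the 4 libraries (horizontal axis) of Kdr (left, red) with its 3 nearest genes and Hes1 (dashed), and of Cldn5 (right, red) with its 3 nearest genes and Dll4 (dashed). Lines only join the values of a gene. The Kdr set is high in both pHes1_EPC libraries and lowest in P4 pHes1_ENCs, and the Cldn5 set is high in P1 pHes1_ENCs alone.

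Hypoxia-inducible factors raise Vegfa when oxygen is short, so their pathway and other genes they induce were read beside it. Hif1a, the oxygen-regulated subunit, stood at 91.1, 66.6, 142 and 71.1 FPKM, with log2 differences of -0.45 and -0.99. Epas1, the related subunit of endothelial and glial cells, stood at 2.29, 4.19, 3.74 and 9.85 FPKM, with differences of 0.66 and 1.20. Egln3, a prolyl hydroxylase that marks these factors for destruction, stood at 1.84, 4.96, 1.13 and 7.39 FPKM (1.07 and 1.98). Among the 7 genes of the pathway the 2-fold threshold was passed in pHes1_EPCs by 1 at P1 (Egln3) and by 2 at P4 (Egln3 and Epas1), beside 6.1% and 9.85% of all genes, and by 0 in pHes1_ENCs, or by 1 at P4 (Hif1a) when the libraries were scaled by total, median of ratios or quantiles. The median differences were 0.27 at P1 as at P4, and -0.02 at P4 with FPKM scaled to the same total.

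Hypoxia-induced genes went in both directions. Of 14, 2 passed the threshold in pHes1_EPCs at P1 and 2 in pHes1_ENCs, and at P4 these counts were 4 and 1, beside 6.1% and 6.79% of all genes at P1 and 9.85% and 5.42% at P4. The count in pHes1_ENCs at P4 was 2 under each of the 3 other scalings, and that in pHes1_EPCs at P1 was 1 under median-of-ratios scaling. Slc2a1, the glucose transporter, stood at 110, 392, 111 and 345 FPKM and Pgk1, a glycolytic enzyme, at 162, 331, 134 and 493 FPKM, both past the threshold in pHes1_EPCs at each age, Pgk1 at P1 by little (1.02). Ndrg1, at 212, 73.6, 566 and 179 FPKM, was past it in pHes1_ENCs at each age. Ldha, at 445, 329, 1198 and 634 FPKM, was also lower in pHes1_EPCs at each age (-0.43 and -0.92), short of the threshold. Adm (adrenomedullin, a vasodilator peptide) stood at 0.652, 0.60, 1.01 and 5.34 FPKM, with differences of -0.05 and 1.66. The median differences were 0.18 and 0.70, beside 0.33 and 0.88 for Vegfa.

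Of 10 secreted inhibitors of vessel growth, the 2-fold threshold was passed in pHes1_EPCs by 5 at P1 and by 7 at P4, beside 6.1% and 9.85% of all genes, and in pHes1_ENCs by 1 at P1 (Vash1, at 51.1, 18.9, 56.8 and 31.6 FPKM). Sparc, a matrix protein that binds growth factors, stood at 24.3, 136, 16.2 and 374 FPKM. Col18a1, the source of endostatin, stood at 3.87, 15.6, 2.75 and 14.1 FPKM, and Adamts1 at 5.32, 18.8, 2.92 and 17.0 FPKM. Thbs1 (thrombospondin) was at 0.0390, 0.293, 0.112 and 3.38 FPKM, with differences of 0.32 and 1.98. The median differences of the 10 genes were 0.91 and 1.69.

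Of the angiopoietin, apelin and norrin signals, Ndp and Angpt1 had the widest differences. Ndp, the norrin ligand that Muller glia supply to retinal vessels, stood at 1.17, 4.71, 0.819 and 11.5 FPKM, with log2 differences of 1.40 and 2.78. Of its receptor complex, Fzd4 (1.03, 1.28, 1.98 and 0.663 FPKM) and Lrp5 (20.3, 23.7, 9.33 and 17.4 FPKM) did not pass the threshold, and Tspan12 (3.34, 2.90, 1.82 and 5.84 FPKM) passed it at P4. Angpt1, the ligand that stabilizes vessels, had the opposite direction at 7.04, 0.177, 4.56 and 0.785 FPKM, with differences of -2.77 and -1.64. Tek, the receptor of Angpt1, did not pass 0.0409 FPKM. Of the 9 genes, 1 passed the threshold in pHes1_EPCs and 1 in pHes1_ENCs at P1, and 2 and 1 did so at P4. These are small counts, beside shares of 6.1%, 6.79%, 9.85% and 5.42% of all genes. Under quantile scaling the P4 counts were 1 and 2. With FPKM scaled to the same total, the counts were 2 and 2 at P1 and again at P4. The list had median differences of 0.0007 and -0.02.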

How the data were processed

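RNA of 4 sorted fractions was sequenced as 4 libraries of single-end reads of 36 bases, from randomly primed cDNA that keeps no strand. The authors aligned the reads to NCBI37/mm9 with TopHat2 2.0.8b (a read could keep 50 positions) and deposited FPKM from Cufflinks 2.1.1 for 23021 gene lines, each with its 95% interval. Read counts were not used here, so depth is known only through the intervals. Small RNAs (787 lines) were left out and 235 symbols with several lines were reduced to their highest line, which left 21828 genes. Ratio ranges run from the low end of one interval over the high end of the other to the reverse. Python 3.11.15, numpy 2.4.6, pandas 2.3.3 and matplotlib 3.10.9 were used, and the procedure was tested on simulated data. Locus starts count from 0 in the tables and were raised by 1, and exons are those of GENCODE vM1.

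The 10 genes, the 15 further lists and the threshold were chosen with earlier results of these data known. In each list, genes that reach 10 FPKM in a library, or have the 2 largest differences among those that reach 1 FPKM, were set out for naming. Not all of them are named above, as with several hypoxia-induced genes and Muller glia markers. For likeness the 3 nearest genes are named. Other genes of the lists, and the motifs, were picked after the values had been seen. Alternatives were a pseudocount of 0.1, ratios without a pseudocount, a minimum of 1 FPKM in the higher library, rescaling to a total of 1e6, median-of-ratios and quantile scaling, the lines of a symbol summed and intervals that do not overlap. Added after seeing the data were the mural list without Mcam and Notch3, and the endothelial sum without Egfl7 and Nos3.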

Additional observations from a re-analysis of the deposited data

Results flagged for a closer look

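Among the 10 genes and the lists, 4 genes that reached 1 FPKM passed the 2-fold threshold at one age and had a difference of more than 0.1 in the opposite direction at the other. Smaller reversals, such as that of Olig1 (-0.96 and 0.82), are not counted here. In each case the change between the ages was not tested, since each group holds 1 library. Cldn5 had log2 differences of -1.95 at P1 and 0.50 at P4, 2.45 apart, and the P4 intervals overlapped. Olig2, a factor of progenitors and oligodendrocyte precursors, had -2.21 and 1.75, 3.97 apart. Tspan12, of the norrin receptor complex, had -0.15 and 1.28, 1.43 apart. Ddit4, a hypoxia-induced gene, had -1.04 and 0.30, 1.34 apart (57.4, 27.3, 87.6 and 108 FPKM).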

How the results depend on the processing

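The count of 1 gene past the 2-fold threshold in pHes1_EPCs at P1 became 3 with a pseudocount of 0.1, 2 with FPKM rescaled to the same total and 4 as ratios without a pseudocount. The count of 1 higher in pHes1_ENCs at P1 became 3 without a pseudocount. The count of 0 higher in pHes1_ENCs at P4 became 1 with the pseudocount of 0.1, the same total, median-of-ratios or quantile scaling, and 2 without a pseudocount. The other 23 recounts stayed within 1.5 times, and the count of 4 in pHes1_EPCs at P4 became 3 under quantile scaling, where Pdgfra had 0.98. Without a pseudocount the genes added were Flt1, Cdh5 and Pdgfrb (pHes1_EPCs, P1), Pecam1 and Tie1 (pHes1_ENCs, P1) and Tie1 and Pdgfa (pHes1_ENCs, P4), and Pdgfa was the gene added at P4 under the other settings. Over the alternatives the difference of Kdr ran from 2.06 to 2.16 at P1 and from 3.49 to 3.98 at P4, that of Vegfa at P4 from 0.55 to 0.89, that of Cldn5 at P1 from -2.23 to -1.95 and that of Pdgfa at P4 from -1.47 to -0.96. No difference of the 10 genes past the threshold changed sign. The median of genes with at least 1 FPKM in all libraries was 0.15 at P4, -0.11 after rescaling to the same total and -0.01 after median-of-ratios scaling. The counts of the lists changed most with FPKM scaled to the same total, where the tip and stalk cell genes had 4 in pHes1_EPCs and 3 in pHes1_ENCs at P1, in place of 3 and 1, and the endothelial markers 2 and 2 at P4, in place of 1 and 1.

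No paired analysis within an age was possible, because each age holds 1 library of each fraction and so 1 pair without a replicate. A model of fraction and age over the 4 libraries, which would take the change of the fraction difference with age as error, was not run. No library was left out, since a group would then be empty. Pecam1, Cdh5 and Tie1 rest on fewer than 10 inferred reads in each library, and Pdgfrb on about 9.87 in P4 pHes1_ENCs.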
